A study of Mus musculus with 6 samples.

Results

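The keratin-positive cells of the tumors were cells of the pooled MOC-2 sample that carried transcripts of an epithelial program, and 449 such cells were found among 13768 kept cells, a share of 3.26% (exact 95% binomial interval 2.97 to 3.57%). MOC-2 is a mouse line of head and neck squamous cell carcinoma. A cell was counted when at least 3 of 7 genes were detected in it with at least 5 unique molecular identifiers (UMIs) in all. The 7 genes were Epcam, Krt7, Krt19, Cldn4, Cldn7, S100a14 and Krt17. Such a cell also had at most 1 UMI of the leukocyte genes Ptprc and Tyrobp together, no UMI of the endothelial gene Pecam1, at least 500 genes, and under 15% mitochondrial counts. These limits chose the cells, so the levels of the 7 genes and of Ptprc, Tyrobp and Pecam1 are a description and not a finding.

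The tumors grew from 100000 MOC-2 cells placed under the skin of the back or hind region of 6 male mice, and they measured about 50 to 100 mm3 before treatment. The labels list 3 vehicle tumors, described as DMSO, and 3 tumors treated with an experimental agent that the labels do not name, all taken 24 h after 1 injection into the tumor. The protocol lists copper(II) diethyldithiocarbamate, an adenosine receptor agonist, a STING agonist, 5′ppp-dsRNA, R848, galunisertib, epcadostat (so spelled), nor-L-arginine, L-NMMA, clodronate and 4-1BB ligand, given alone or combined, and does not say which of them the treated tumors received. The tumors are subcutaneous grafts of 1 line. Mouse strain and age are not given in the labels. Dead cells were sorted out, the cells of each tumor received their own oligonucleotide tag, and equal parts of all tumors went into 1 pool for droplet sequencing of RNA 3′ ends. Cell barcodes fall into 6 sets by their suffix, each with a different most abundant tag. No label ties a set or a tag to a tumor. The pool was therefore treated as 1 sample without replicates, the sets as samples of unknown group, and treated tumors were not set against vehicle tumors. No test was run on cells: values carry exact 95% intervals that cover counting error only.

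Epithelial cells are held together by tight junctions, adherens junctions built on E-cadherin, and desmosomes that anchor keratin filaments. Basal cells rest on a laminin matrix through hemidesmosomes. In squamous carcinomas these structures can be lost when transcription factors of the Zeb, Snail and Twist families repress epithelial genes and mesenchymal genes such as Vim and Sparc are expressed. Zeb and Snail proteins bind E-box sequences in the promoters of epithelial genes, and cells that hold both programs are often called hybrid cells.

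Promoters of 28 of 60 genes, made up of the 7 rule genes and the lists of tight junction, adherens junction, desmosome and epithelial regulator genes, were matched in RefSeq's table for GRCm38.p6. The E-box was searched as CAGGTG and CACCTG, which are the same site read from either strand, in the 250 bases before the start of each gene. It occurred in 11 of the 28 (39.3%), against 17.1% of all 27025 promoters. TGANTCA, the AP-1 site, occurred in 2 of the 28 and in 6.85% of all. By list, the E-box was in 3 of 4 matched rule genes, 6 of 13 tight junction genes, 2 of 5 epithelial regulators, and none of 4 adherens junction or 2 desmosome genes. Of 8 matched keratins outside the rule, which the 28 do not include, 5 held it. These letters are a description of the sequence and not a binding site. The promoters that follow are shown 5′ to 3′ on the strand of the gene with the E-box in capitals. They belong to the surface marker Epcam (chr17:87635729-87635978, plus strand, E-boxes starting 187 and 19 bases before the start), the simple keratin Krt7 (chr15:101412153-101412402, plus strand, 44 bases), the polarity gene Crb3 (chr17:57061951-57062200, plus strand, 118, 63 and 7 bases), the epithelial transcription factor Elf3 (chr1:135258473-135258722, minus strand, 140 bases) and the basal keratin Krt5 (chr15:101712906-101713155, minus strand, 128 bases). Each of these genes is described again with its level.
Epcam: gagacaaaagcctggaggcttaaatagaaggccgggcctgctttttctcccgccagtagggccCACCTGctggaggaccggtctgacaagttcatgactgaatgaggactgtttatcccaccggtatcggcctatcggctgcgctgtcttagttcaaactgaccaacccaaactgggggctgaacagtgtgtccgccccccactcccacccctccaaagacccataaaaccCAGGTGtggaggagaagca
Krt7: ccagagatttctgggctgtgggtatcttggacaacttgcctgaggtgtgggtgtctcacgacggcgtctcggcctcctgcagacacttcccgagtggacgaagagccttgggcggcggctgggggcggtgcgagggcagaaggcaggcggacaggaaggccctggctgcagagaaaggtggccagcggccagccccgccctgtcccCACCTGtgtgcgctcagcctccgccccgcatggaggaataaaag
Crb3: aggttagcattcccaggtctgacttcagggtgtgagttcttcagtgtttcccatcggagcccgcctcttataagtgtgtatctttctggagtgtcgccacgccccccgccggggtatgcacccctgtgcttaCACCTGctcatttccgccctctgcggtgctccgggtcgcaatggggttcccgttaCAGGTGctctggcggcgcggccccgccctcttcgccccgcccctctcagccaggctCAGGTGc
Elf3: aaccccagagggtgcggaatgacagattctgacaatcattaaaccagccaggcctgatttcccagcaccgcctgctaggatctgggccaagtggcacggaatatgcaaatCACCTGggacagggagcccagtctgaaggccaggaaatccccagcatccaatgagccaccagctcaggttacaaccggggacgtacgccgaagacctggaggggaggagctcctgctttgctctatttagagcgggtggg
Krt5: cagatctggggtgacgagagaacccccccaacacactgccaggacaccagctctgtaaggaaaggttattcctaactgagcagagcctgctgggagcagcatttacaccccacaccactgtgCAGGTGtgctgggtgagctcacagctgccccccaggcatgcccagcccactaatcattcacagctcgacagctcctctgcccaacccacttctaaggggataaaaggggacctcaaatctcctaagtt

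The matrix held 141434361 gene UMIs in 14818 deposited cells, and no barcode was shared between sets. Keratin-positive cells had a median of 11519 UMIs (1030 to 109253) and 3299 genes, against 8380 UMIs in all kept cells. A doublet caller marked 27 kept cells (0.196%), which is too few for a working call, so doublets may remain. It marked no keratin-positive cell, and 2 of the 449 had a score of at least 0.25. The largest tag of a cell held under 90% of tag counts in 167 of the 449 (37.2%), against 27.5% of kept cells.

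Among the 449 cells, 103 carried exactly 3 of the rule genes and 129 carried all 7, with a median of 35 rule-gene UMIs (5 to 519). Just inside the limit, 22 cells had 5 or 6 rule-gene UMIs, with Cdh1 at 60.9 and Vim at 3328 CPM, the counts of the summed cells scaled to 1000000 gene UMIs. Just outside it, 18 cells had at least 3 of the genes but only 3 or 4 UMIs, with Cdh1 at 33.5 and Vim at 3907 CPM. Another 375 cells had at least 5 UMIs of only 1 or 2 of the genes, with Cdh1 at 13.4 and Vim at 4191 CPM, and 343 of these held Krt7 or Krt19 alone. The limits on Ptprc, Tyrobp and Pecam1 removed 33 of 482 cells that met the marker limits. Epcam, an adhesion protein of the epithelial cell surface, stood at 712 CPM, and the filament keratins Krt7 and Krt19 at 1180.4 and 944 CPM. The tight junction claudins Cldn4 and Cldn7 stood at 366 and 293 CPM, S100a14 at 307 CPM and the stress-inducible keratin Krt17 at 301 CPM.

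The cells were spread unevenly over the barcode sets. Sets 1 to 6 held 19, 78, 215, 53, 30 and 54 of them, which is 0.658, 3.53, 25.8, 1.40, 1.11 and 4.00% of the kept cells of each set (median 2.46%). Set 3 held 47.9% of all keratin-positive cells although it had the fewest kept cells, 832. Among 7529 cells that were keratin-positive or had at least 2 Xist UMIs and no Y-linked UMI under the same limits, the keratin-positive share was 5.96% over all sets, 62.9% in set 3 and between 1.16 and 9.26% in the other sets. Because set 3 weighs so much, ratios printed here are also given without it where they moved by more than 1.5 times.

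**Figure D1:**
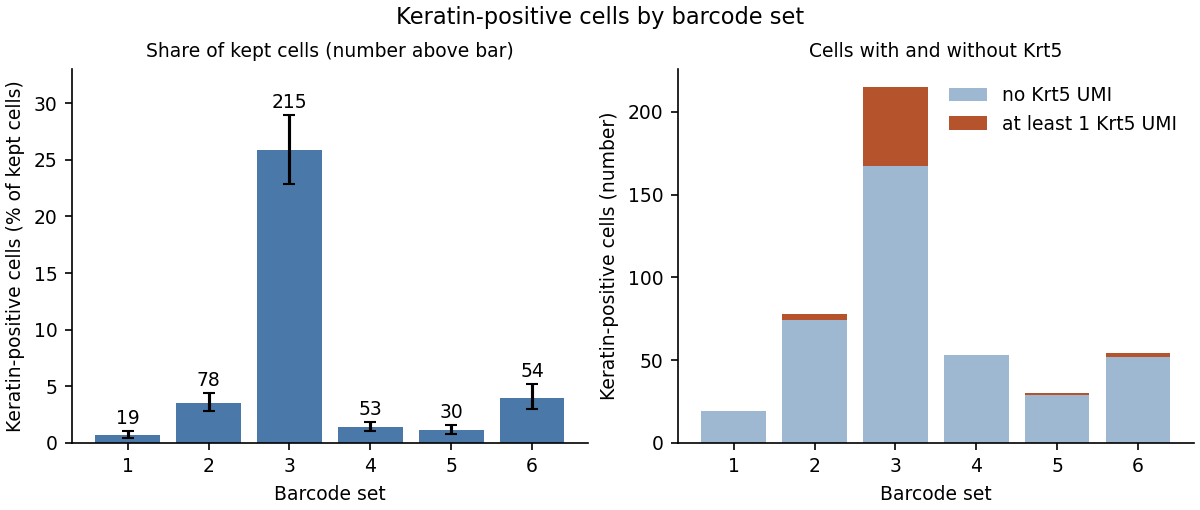
Left, keratin-positive cells as a percentage of the kept cells of each barcode set, with exact 95% binomial intervals and the number of cells above each bar. Right, the same cells by number, split by whether a Krt5 UMI was seen. Set 3 stands at 25.8% and the other sets between 0.658 and 4.00%.

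The hosts were male, and the keratin-positive cells carried Xist and few Y-linked transcripts. Xist, the RNA made from an inactive X chromosome, stood at 1351 CPM (1322 to 1380) and was seen in 82.0% of keratin-positive cells. Over the sets it ran from 649.8 through a median of 862 to 1888 CPM, and set 3 was highest. The genes Uty, Kdm5d, Ddx3y and Eif2s3y of the Y chromosome gave 13 UMIs in 10 of the 449 cells, or 2.09 CPM (1.11 to 3.58). In 157 Y-positive Xist-negative stromal cells, which were chosen by these genes, the sum was 398 CPM. No keratin-positive cell combined the absence of Xist UMIs with 2 or more Y-linked UMIs, and 3 cells would be 0.668% of them, a limit on cells with such UMIs only. In 79 cells neither was seen, and these cells could not be assigned to line or host.

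Markers of most other cell types were low but not absent. The summed leukocyte markers stood at 114 CPM, with 8.28 to 185 CPM over the sets, against 7871 CPM in 2536 immune cells chosen by at least 3 UMIs of Ptprc and Tyrobp, and Cd74 made up 86.4 CPM of it. The keratin-low carcinoma-like cells described later stood at 29.9 CPM, so the keratin-positive sum was 3.83 times theirs and higher in 5 of 6 sets. The complement gene C1qa and the Fc receptor chain Fcer1g stood at 3.22 and 8.05 CPM, against 592 and 2159.9 in immune cells. The summed fibroblast markers stood at 642 CPM, against 3842 CPM in keratin-low carcinoma-like cells and 43083 CPM in Y-positive stromal cells. Flg, Krt1, Dsg1a and Sprr3 of differentiated skin, Krt25, Krt31, Krt35 and Krt71 of hair, Des, Myh11 and Ckm of muscle, Tyr and Mlana of melanocytes, and Vwf and Cldn5 of endothelium had no UMI in the 449 cells, where 3 counts would be 0.483 CPM. The summed cornified envelope and keratinocyte genes were not low, at 1091 against 156 CPM in keratin-low cells. Their sum was higher in 6 of 6 sets, but unevenly, at 2029 against 130 CPM in set 3 and 145 against 133 CPM in set 4. Keratin-positive cells without a Krt5 UMI stood at 357 CPM, and at 206 CPM outside set 3. The summed pericyte and muscle markers stood at 31.5 CPM, against 35.6 in keratin-low cells and 1581 in Y-positive stroma, and the endothelial markers at 6.28 against 14.1 CPM in keratin-low cells. The part of the other cell types in the results was not tested.

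Levels were compared with 6265 keratin-low cells of the same pool. These had at most 1 UMI of the rule genes, the same limits on leukocyte and endothelial genes, at least 2 Xist UMIs and no Y-linked UMI, with a median of 10833 UMIs. Among 13020 genes with at least 50 counts over both groups, 923 (7.09%) were at least 2-fold higher in keratin-positive cells and 1460 (11.2%) at least 2-fold lower, and the median ratio was 0.914. These shares are the background for the counts that follow. A sparse gene can reach 50 counts through the keratin-positive cells alone, and such a gene had to differ, so the counts and medians per list are descriptions of the genes that reached 50 counts. The 7 rule genes and the limits shared by both groups were set by the choice of cells.

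Most keratins outside the rule were higher. Of 15 listed keratins, 10 had enough counts, and 9 of these were at least 2-fold higher, against 7.09% of all genes, and none lower (median ratio 12.8). Krt8 and Krt18, the filament pair of simple epithelia, stood at 1849 and 882 CPM, against 402 and 168 CPM in keratin-low cells. Krt8 ran from 1490.1 (median 1795) to 2353 CPM over the sets, against 246 (median 370.1) to 477 CPM in keratin-low cells. The groups did not overlap, and the ratio of the sums was 4.60 (4.51 to 4.70). Krt14, the partner of Krt5 in basal cells, stood at 447, 669 and 1142 CPM as the lowest, median and highest set, against 8.04, 10.9 and 46.5 CPM. Every set was again higher than any keratin-low set, with a ratio of 86.0 (79.9 to 92.7). Krt6a and Krt16, keratins of activated and wounded epithelium, were 39.1-fold and 41.2-fold higher, and 18.1-fold and 12-fold without set 3. Reads of Krt6a may be shared with near-identical Krt6 copies. Krt5 itself stood at 131 CPM, from 817 UMIs in 55 cells, against 4 UMIs in the keratin-low cells. Its ratio of 2555 was 591 without set 3. Krt10 of suprabasal skin did not reach 2-fold, at 21.4 against 19.9 CPM.

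Cornified envelope and keratinocyte genes were also higher, with 9 of 11 tested members at least 2-fold higher, and most of them came from few cells. Among the 11, 4 had under 50 counts in the keratin-low cells. Sprr2a3, a small proline-rich envelope protein, stood at 122 against 1.66 CPM and was seen in 19.2% of keratin-positive cells, with the limit that Sprr2a copies share reads. Its ratio of 73.8 was 36.0 without set 3 and 117 without set 5. Dmkn, a secreted keratinocyte protein, stood at 129 against 0.206 CPM and in 20.0% of cells, and its ratio of 628 was 104 without set 3 and 1041 without set 5. Tgm1, the transglutaminase that cross-links the envelope, was 157-fold higher at 22.2 CPM. Lgals7, a galectin of stratified epithelium, was 4.97-fold higher over all sets and 0.794 times the keratin-low level without set 3, so its direction rests on that set. In the hair and gland list, 1 of 4 tested genes was higher (Krt27, 9.01 against 0.720 CPM) and 1 lower (Aqp5, 6.76 against 26.7 CPM). Aqp5 was nearly level, at a ratio of 0.944, when 2 markers and 3 UMIs sufficed.

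Of 15 tested tight junction genes, 13 were at least 2-fold higher and none lower, with a median ratio of 23.8. Among the 15, 7 had under 50 counts in the keratin-low cells. Cldn3, a sealing claudin, ran from 106 (median 289.6) to 383 CPM over the sets and from 4.88 (median 13.9) to 17.4 CPM in keratin-low cells. The sets did not overlap, and the ratio was 23.8 (22.0 to 25.6). Cldn6, a claudin best known from embryonic epithelium, stood at 108 against 0.605 CPM. Crb3, whose promoter is shown above, anchors the apical polarity complex and stood at 35.9 CPM from 223 UMIs, against 0.103 CPM from 8 UMIs, a ratio of 349 that was 718 without set 1. Its partners Pard6b and Patj were 93.8-fold and 6.15-fold higher. Occludin (Ocln) was 47.9-fold higher at 21.6 CPM, and cingulin (Cgn) 66.7-fold at 15.4 CPM. The scaffold Tjp1 and Cldn12 did not reach 2-fold, at 118 against 97.1 and 30.4 against 43.5 CPM.

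E-cadherin (Cdh1), which joins epithelial cells to each other, separated the groups clearly. Its level ran from 124 (median 196) to 266 CPM over the sets, against 0.826 (median 1.28) to 2.51 CPM in keratin-low cells. The ratio was 159 (131 to 195), with no overlap of the sets. With each cell thinned to 2000 UMIs, Cdh1 was seen in 38.2% of 442 keratin-positive cells, 0.392% of 6130 keratin-low cells and 2.46% of 1830 immune cells, whose median before thinning was 2867 UMIs over all immune cells. Thinning left out 7, 135 and 706 cells, and the unthinned share in keratin-positive cells was 72.8%. P-cadherin (Cdh3) was 110.4-fold higher at 24.1 CPM, and 167-fold without set 2. The catenins that link cadherins to actin were closer, with Ctnnb1 at 325 against 271 CPM and Ctnna1 at 322 against 175 CPM. In all, 4 of 7 tested adherens junction genes were at least 2-fold higher, among them Nectin1 at 3.16-fold, which was 1.24-fold without set 3.

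All 11 tested desmosome genes were at least 2-fold higher (median ratio 11.2), and 4 of them had under 50 counts in the keratin-low cells. Desmoplakin (Dsp), which ties keratin filaments to the junction, ran from 49.0 (median 77.9) to 129.9 CPM over the sets and from 0.220 (median 0.576) to 13.6 CPM in keratin-low cells. Those ranges did not overlap. Dsg2, the desmosomal cadherin of simple epithelia, stood at 46.2 against 0.206 CPM. Dsg3, that of basal squamous layers, had 176 UMIs in the keratin-positive cells and 1 in the keratin-low cells, a ratio with a counting interval from 390.1 to 87449. Of the 176, 119 were in the set 3 cells with Krt5 and 30.0 in the other set 3 cells. Plakoglobin (Jup) and the desmosomal membrane protein Perp were already present in keratin-low cells and were 5.38-fold and 7.75-fold higher, at 219 and 213 CPM.

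Of 12 basement membrane and hemidesmosome genes, 9 were at least 2-fold higher and none lower (median ratio 6.98). The epithelial laminin chains Lama3 and Lamb3 stood at 151 and 74.0 CPM, against 0.823 and 0.733 CPM. Lama3 ran from 85.1 (median 133) to 190.2 CPM over the sets, apart from 0.551 (median 0.870) to 3.87 CPM in keratin-low cells. The hemidesmosome integrin Itgb4 and its partner Itga6 were 4.31-fold and 2.51-fold higher, at 99.0 and 832 CPM. Itgb6, an epithelial integrin that activates TGF-beta, was 14.1-fold higher at 20.3 CPM. The cytolinkers Dst and Plec overlapped over the sets, at ratios of 0.933 and 0.990.

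Of 11 tested epithelial transcription and splicing regulators, 8 were at least 2-fold higher and none lower, with a median ratio of 56.1. Another 5 of the 16 listed genes had too few counts, and 5 of the 11 had under 50 counts in the keratin-low cells. Esrp1, the splicing factor that maintains epithelial isoforms, had 260 UMIs against 5, or 41.8 against 0.0643 CPM, and stood at 23.4, 35.9 and 51.3 CPM as the lowest, median and highest set. The ratio was 650.5 (275 to 2020.2), and it was 52.9 when levels were averaged over the barcode sets. Elf3, an epithelial ETS factor, ran from 45.6 (median 83.2) to 181 CPM, above the 0 to 1.03 CPM of the keratin-low sets. Ovol1 and Grhl2, regulators of epithelial differentiation, stood at 19.5 and 12.6 CPM, against 0.347 and 0.0515 CPM. Grhl2 had no UMI in the lowest set, so its sets overlapped. Trp63, the master factor of basal squamous cells, was 14.3-fold higher at 12.6 CPM. Without set 3 the ratios of Ovol1, Grhl2 and Trp63 went from 56.1, 244 and 14.3 to 19.9, 124 and 7.17. Klf5, Tfap2a and Pitx1 did not reach 2-fold, at ratios of 1.60, 0.783 and 1.02. Sox9, the most abundant of the list, was 2.17-fold higher and fell under 2-fold in 3 alternatives. Its level was 809 against 373 CPM, and the summed list gave a ratio of 2.17. That pooled ratio lay above the ratio within each barcode set, which ran from 1.46 to 2.04 (median 1.87).

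Surface proteases, their inhibitors and trafficking genes gave 9 of 10 tested members at least 2-fold higher, and 4 of the 10 had under 50 counts in the keratin-low cells. Spint2, a Kunitz inhibitor of membrane serine proteases, stood at 259 against 9.12 CPM, and St14, the protease matriptase that it inhibits, at 38.0 against 0.141 CPM. The small GTPase Rab25 stood at 64.0 CPM, against 9 UMIs in all keratin-low cells together. Prss22, a tryptase-like serine protease, was 84.1-fold higher, and the tetraspanin Cd9 was level, at 2000.1 against 1976 CPM.

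**Figure D2:**
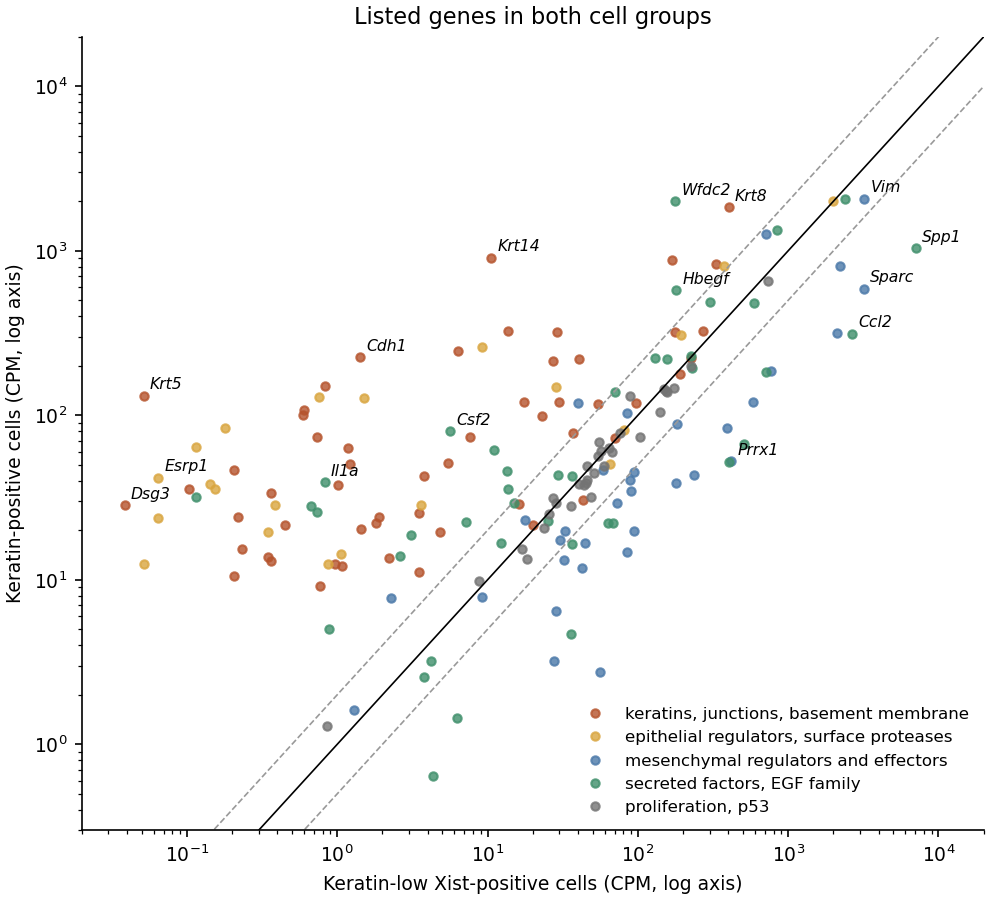
Listed genes with at least 50 counts, plotted by their level in keratin-low Xist-positive cells (x) and in keratin-positive cells (y), both in CPM on log axes. A gene below the floor of 3 counts is drawn at the floor. The solid line marks equal levels and the dashed lines a 2-fold difference. Most junction, keratin and epithelial regulator genes lie above the upper line, and proliferation genes lie along the line of equal levels.

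Most mesenchymal genes were lower in the keratin-positive cells. Of 11 mesenchymal transcription factors, 9 were at least 2-fold lower and none higher (median ratio 0.380). Zeb1, a repressor of Cdh1, ran from 22.3 (median 44.7) to 58.0 CPM over the sets, against 63.9 (median 89.4) to 100.3 CPM in keratin-low cells. Its sets did not overlap, with a ratio of 0.380 (0.330 to 0.435). Prrx1, a homeobox factor of mesenchyme, ran from 29.4 (median 60.8) to 157 against 263 (median 407) to 467 CPM, a ratio of 0.126, and its sets also stayed apart. Snai1, Snai2 and Twist2 had ratios of 0.275, 0.225 and 0.216, at 11.7, 6.44 and 38.9 CPM. Zeb2, Twist1 and Prrx2 lay near the threshold, with ratios of 0.487, 0.461 and 0.484 that became 0.547, 0.630 and 0.597 without set 3, and Zeb2 stood at 0.504 without set 6. Runx2 and Foxc2 did not reach 2-fold.

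Among 22 mesenchymal effector genes, 13 were at least 2-fold lower and 2 higher, and the summed list stood at 0.429 of the keratin-low level. Vimentin (Vim), the mesenchymal filament, was the most abundant and did not reach 2-fold. It ran from 1451 (median 2638) to 3322 CPM over the sets, against 2945 (median 3229) to 3469 CPM, so the groups overlapped, with a ratio of 0.649 (0.638 to 0.661). Sparc, a matrix glycoprotein, ran from 326 (median 758) to 1280.0 against 2205 (median 3188) to 3968 CPM, without overlap and at a ratio of 0.185. Immune cells held 974 CPM of Sparc and 2041 CPM of Vim, and after thinning Sparc was seen in 25.8% of keratin-positive and 21.6% of immune cells. The fibrillar collagen Col3a1 and the proteoglycan Dcn had ratios of 0.148 and 0.104, and the calcium-binding protein S100a4 one of 0.364. Fibronectin (Fn1), a mesenchymal matrix protein, went the other way without reaching 2-fold, at 1271 against 717 CPM, and its ratio of 1.77 became 2.29 without set 3. The 2 genes called higher were Col1a2 (118 against 40.2 CPM) and Acta2 (7.72 against 2.28 CPM), which was seen in 2.00% of cells and stood at 441 CPM in Y-positive stroma. Acta2 turned lower in 4 of the alternatives, among them at 0.843 without set 2, and was 7.83-fold higher without set 3.

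**Figure D3:**
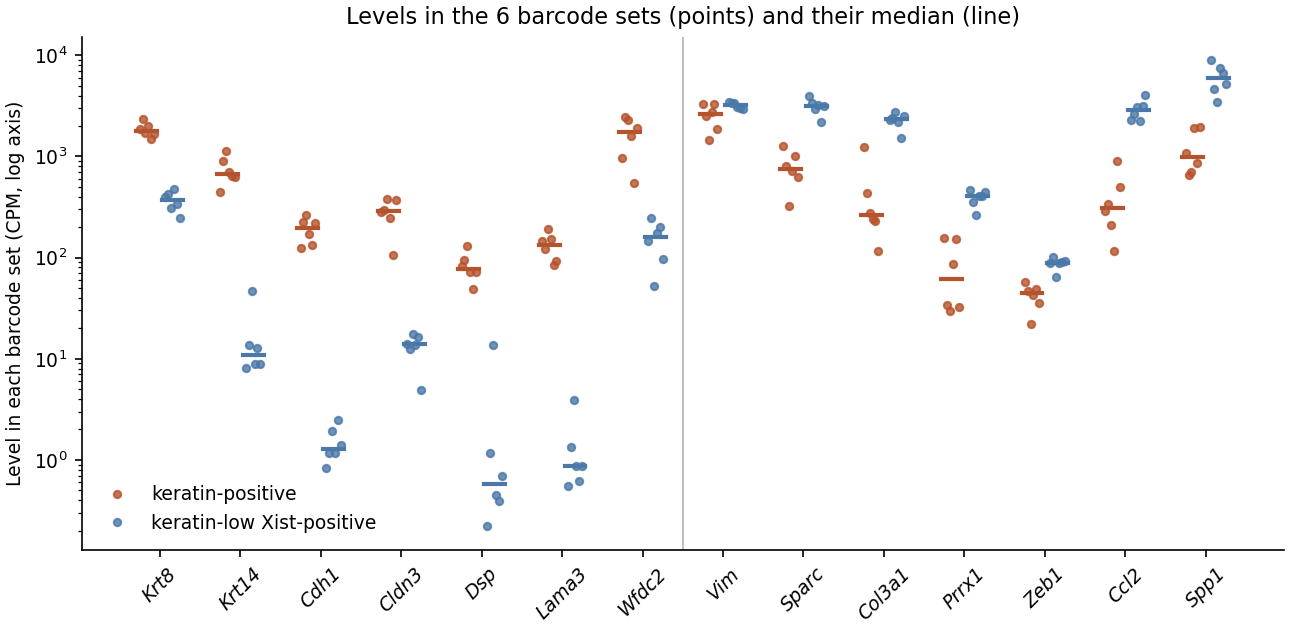
Levels in each of the 6 barcode sets (points, CPM on a log axis) and their median (line) for keratin-positive and keratin-low Xist-positive cells. To the left of the vertical line, every keratin-positive set lies above every keratin-low set. To the right, Sparc, Col3a1, Prrx1, Zeb1, Ccl2 and Spp1 lie lower without overlap, and Vim overlaps.

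Receptors and ligands of the EGF family differed gene by gene. Hbegf, a membrane-bound EGF receptor ligand, ran from 385 (median 558) to 618 CPM over the sets, against 149.6 (median 198) to 356 CPM. Its sets stayed apart and its ratio was 3.20 (3.09 to 3.33). Tgfa, another ligand, and the receptor Erbb3 were 42.1-fold and 35.3-fold higher, at 28.2 and 25.9 CPM. Ereg was lower, at 183 against 714 CPM, while Areg and the receptor Egfr did not reach 2-fold, at ratios of 0.812 and 0.900. In all, 4 of 10 were higher and 1 lower. On the TGF-beta list, 1 of 15 genes was higher (Itgb6) and 4 lower. Tgfb2, a ligand, and Tgfbr3, a co-receptor, stood at 5.95 against 39.1 and 19.0 against 74.9 CPM, and the receptors Tgfbr1 and Tgfbr2 were near level at 0.895 and 1.20.

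Secreted defence genes gave 6 higher and 3 lower of 13. Wfdc2, a whey acidic protein family member secreted by epithelia, ran from 545 (median 1765) to 2465 CPM over the sets, against 52.3 (median 160.3) to 247 CPM. Every set was above every keratin-low set, and the ratio was 11.3 (11 to 11.5). The alarmin Il1a was 47.7-fold higher at 39.3 CPM, and 15.4-fold without set 3. Its natural antagonist Il1rn was 3.39-fold higher and 2.31-fold without set 3. Il33, another alarmin, was lower, at 52.1 against 406 CPM, and its sets did not overlap. Tslp, an epithelial cytokine, and the antiprotease Slpi did not reach 2-fold, at ratios of 1.41 and 1.61, and Slpi was at 1.07 without set 3.

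Of 18 chemokines and growth factors, 4 were higher and 7 lower. The myeloid growth factor Csf2 ran from 24.9 (median 63.5) to 198 CPM over the sets, against 2.37 (median 6.05) to 23.2 CPM, without overlap and at a ratio of 14.2, and was seen in 15.1% of the cells. Cxcl16, a ligand of CXCR6, was 5.58-fold higher at 61.6 CPM. The monocyte chemokines Ccl2 and Ccl7 stood at 313 and 66.8 CPM, against 2649 and 509 CPM, and neither overlapped over the sets. Spp1 (osteopontin) ran from 658 (median 978) to 1943 against 3479 (median 5962) to 8975 CPM, also apart. The neutrophil chemokines Cxcl1 and Cxcl2 stayed within 2-fold, at 2057 against 2405 and 1335 against 840.4 CPM, and Vegfa was level at a ratio of 1.03.

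Most MHC class I genes showed small differences. Of 16 MHC class I pathway genes, only the immunoproteasome subunit Psmb9 reached 2-fold (107 against 39.8 CPM), and the median ratio was 1.49. H2-K1, a class I heavy chain, stood at 1598 against 799.9 CPM, a ratio just under 2, with overlapping sets, and B2m, the shared light chain, was level at 1.00. Reads of H2 genes may be split between near-identical copies. Interferon-response genes were 1 higher and 4 lower of 23, with a median ratio of 0.777. Gbp2, an interferon-inducible GTPase, was 2.83-fold higher, and Ifit1, Ifit2, Ifit3 and Ifi44 were lower, with ratios between 0.325 and 0.471 and overlapping sets. Without set 3, Ifi44 and Ifit3 lost the 2-fold difference, at 0.537 and 0.686, and Ifit3 stood at 0.666 without set 5. Without set 6, Ifit2 and Ifit3 stood at 0.209 and 0.297. Of 12 immune ligand and checkpoint genes with enough counts, 5 were higher and 1 lower. Ido1, a tryptophan-degrading enzyme and the target of the listed epcadostat, stood at 19.5 against 1.12 CPM, a ratio of 17.4 (13.1 to 23.2). Its sets overlapped, and it was seen after thinning in 5.20% of keratin-positive, 0.245% of keratin-low and 0.0546% of immune cells. Ido2 had 6 UMIs, or 0.965 CPM. Cd274 (PD-L1) was 2.10-fold higher at 16.4 CPM, 1.31-fold without set 3 and 1.81-fold without set 1. Tnfsf9, the gene of 4-1BB ligand, stood at 10.6 against 4.75 CPM, and Nectin2, a ligand of NK cell receptors, at 26.1 against 8.25 CPM, with overlapping sets for both. Tnfsf9 fell under 2-fold without set 3, at 1.59. Ulbp1, a ligand of the receptor NKG2D, stood at 2.08 times and lost the 2-fold difference in 9 of 19 alternatives, among them without set 1 (1.83), set 3 (1.65) or set 4 (1.88), and the death receptor Fas was lower, at 4.02 against 15.2 CPM.

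MHC class II genes were examined after their values were seen. Cd74, the invariant chain, stood at 86.4 against 3.28 CPM, and over the sets at 4.14, 30.9 and 159 CPM as the lowest, median and highest, the highest being set 3. Its ratio of 26.3 was 8.66 without set 3. H2-Aa and H2-Eb1 were 8.71-fold and 9.64-fold higher, at 29.1 and 27.5 CPM, and 4.19-fold and 4.28-fold without set 3. In immune cells the levels were 931, 894 and 635 CPM. After thinning, Cd74 was seen in 8.82% of keratin-positive, 0.653% of keratin-low and 32.1% of immune cells, and the myeloid lysozyme Lyz2 stood at 2.09 CPM against 928 CPM in immune cells. Whether immune transcripts contribute to the class II levels was not tested.

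Cycling, arrest and stress genes differed little. None of 20 proliferation genes reached 2-fold in either direction (median ratio 0.886), with the topoisomerase Top2a at 199.8 against 226 CPM and Mki67 at 49.2 against 45.6 CPM. None of 12 p53 and arrest genes reached 2-fold (median ratio 1.00), and the cell-cycle inhibitor Cdkn2a stood at 654 against 735 CPM. Of 15 hypoxia and glycolysis genes, 2 were higher. Slc2a1, the glucose transporter, was 2.31-fold higher with sets apart, and Ndrg1 was 2.54-fold higher and 1.94-fold without set 3. Of 10 NRF2 target genes, 3 were lower: the heme oxygenase Hmox1 at a ratio of 0.454, the cystine transporter Slc7a11 at 0.409 and Aldh3a1 at 0.433. Hmox1 stood at 0.535 without set 5 and Aldh3a1 at 0.501 without set 6. In the early stress list, only Atf3, a stress-induced transcription factor, reached 2-fold, at 422 against 150.3 CPM. The small heat shock protein Hspb1 was the most abundant of that list, at 3438 against 1754 CPM.

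Outside the lists, the 20 genes with the largest ratio among those with at least 200 counts over both groups and seen in at least 10% of the cells of the group where they were higher included many that are known from epithelia. Serpinb5 (maspin), a serpin of epithelial cells, had 446 UMIs against 1, with a counting interval of the ratio from 996 to 220856. The ion transport regulator Fxyd3 stood at 181 against 0.154 CPM, the membrane raft protein Mal at 212 against 0.296 CPM and the tricellular junction protein Lsr at 70.6 against 0.154 CPM. None of these overlapped over the sets. Their ratios of 1172, 716 and 458 were 696 without set 3, 1081 without set 2 and 727 without set 5, respectively. Prom1 (CD133), the keratinocyte focal adhesion protein Fermt1 and the gap junction protein Gjb2 were 772-fold, 282-fold and 629-fold higher. With levels averaged over the barcode sets, these ratios were 54.5, 74.1 and 465. Less typical of epithelium were Calcb, a calcitonin gene-related peptide, at 367 against 3.92 CPM, and Tph1, the first enzyme of serotonin synthesis, at 92.5 against 0.913 CPM. Il24, a cytokine of the interleukin-10 family, stood at 149 against 1.36 CPM. Calcb ran from 66.3 (median 156) to 873 CPM over the sets, above the 0.771 to 23.2 CPM of keratin-low cells. Ly6g and the proliferin Prl2c5 were 667-fold and 120.4-fold higher, and 375-fold and 59.3-fold without set 3 or 1022-fold and 213-fold without set 4, and reads of both families may be split between near-identical copies.

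The 10 genes with the smallest ratio held the heparin-binding growth factor Ptn and the retinoic acid-binding protein Crabp1. Ptn ran from 4.14 (median 7.07) to 9.04 CPM over the sets, against 103 (median 218) to 567 CPM, and Crabp1 from 33 (median 113) to 331 against 604 (median 1573) to 2168 CPM. Both stayed apart, with ratios of 0.0432 and 0.0498. The list also held Adgra2 (2.74 against 57.0 CPM), the lysophosphatidic acid receptor Lpar4 (0.965 against 22.4 CPM) and the serotonin receptor Htr1b (0.965 against 21.6 CPM).

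A few abundant genes outside these ranks were named after their values were seen. Ly6a and Ly6c1, membrane proteins of the Ly6 family whose copies may share reads, stood at 2688 and 2277 CPM, against 809 and 289.7 CPM. Ly6a ran from 2082 (median 2694) to 3165 CPM over the sets, above the 659 to 1259 CPM of keratin-low cells. The interleukin-5 receptor chain Il5ra stood at 62.6 against 1.65 CPM and nephronectin (Npnt), a basement membrane ligand of integrins, at 150.3 against 38.1 CPM, without overlap for either. Arginase 1 (Arg1), the target of the listed nor-L-arginine compound, stood at 62.3 against 15.7 CPM, with overlapping sets. The neurotrophin Bdnf was lower, at 37.0 against 149.8 CPM, without overlap.

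The keratin-positive cells were not uniform. They were ordered by the level of the 7 rule genes per 10000 UMIs and cut into 3 equal bins of 150, 150 and 149 cells, at 1.19 to 21.9, 21.9 to 59.0 and 59.3 to 263. Median UMIs were 12459, 13111 and 9029, so the highest bin was the shallowest. Among 7364 genes with enough counts, 354 (4.81%) were at least 2-fold higher and 468 (6.36%) at least 2-fold lower in the highest than in the lowest bin. The bins are ranges of 1 score and not cell types.

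Epithelial genes that the score did not use were higher in bins with more rule-gene UMIs. Cdh1 stood at 70.3, 250.4 and 403 CPM from the lowest to the highest bin, and Esrp1 at 10.7, 45.1 and 80.2 CPM. Elf3 rose over the bins from 21.3 through 107 to 306 CPM, Lama3 from 23.0 through 96.4 to 392 CPM, and Mal from 27.3 through 143 to 549 CPM. Of the listed genes with enough counts, 10 of 13 tight junction, 6 of 10 desmosome, 6 of 12 basement membrane, 6 of 10 regulator and 8 of 10 surface protease genes were at least 2-fold higher in the highest bin, and none lower. Krt14 was flatter, at 570.3, 1066 and 1173 CPM, and Krt5 was highest in the middle bin, at 213 CPM.

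Mesenchymal genes ran the opposite way, and so did the summed fibroblast markers, at 1272, 361 and 133 CPM, with 6 of 6 tested genes at least 2-fold lower. Their part in the change was not tested. Vim stood at 3234, 1679.9 and 998 CPM from the lowest to the highest bin, against 3200.1 CPM in keratin-low cells. Within set 3 Vim went from 2565 to 594 CPM, and outside set 3 from 3617 to 1326 CPM. Sparc stood at 1263, 218 and 134 CPM, Prrx1 at 109, 23.7 and 11.6 CPM, and Zeb1 at 49.9, 32.6 and 15.7 CPM. Of 18 mesenchymal effectors with enough counts, 17 were at least 2-fold lower in the highest bin, and of 9 regulators 7 were, with none higher in either list. The Cdh1 repressors Snai1 and Zeb2 were among them, at 16.6 and 138 CPM in the lowest and 6.39 and 34.9 CPM in the highest bin.

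Secreted genes also changed across the bins. The neutrophil chemokine Ppbp stood at 1.70, 26.1 and 235 CPM, and Il1a at 2.56, 12.1 and 123 CPM. Tslp stood at 87.8, 134 and 509 CPM, while Ccl2 ran down from 687 through 108 to 60.5 CPM. Psca and lactoferrin (Ltf), glandular surface and secretory proteins named here after their values were seen, had no UMI in the lowest bin and stood at 161 and 127 CPM in the highest, at least 126-fold and 99.1-fold higher against a floor of 3 counts in that bin. They came from few cells, 2.67% and 4.01% of all keratin-positive cells. None of 20 proliferation genes was 2-fold higher in the highest bin and 4 were lower, among them Mcm7, a subunit of the replicative helicase, at 55.8 and 23.8 CPM. Their summed level went from 1677 to 712 CPM within set 3 and from 1110.1 to 1338 CPM outside it, so the direction differed between set 3 and the rest.

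**Figure D4:**
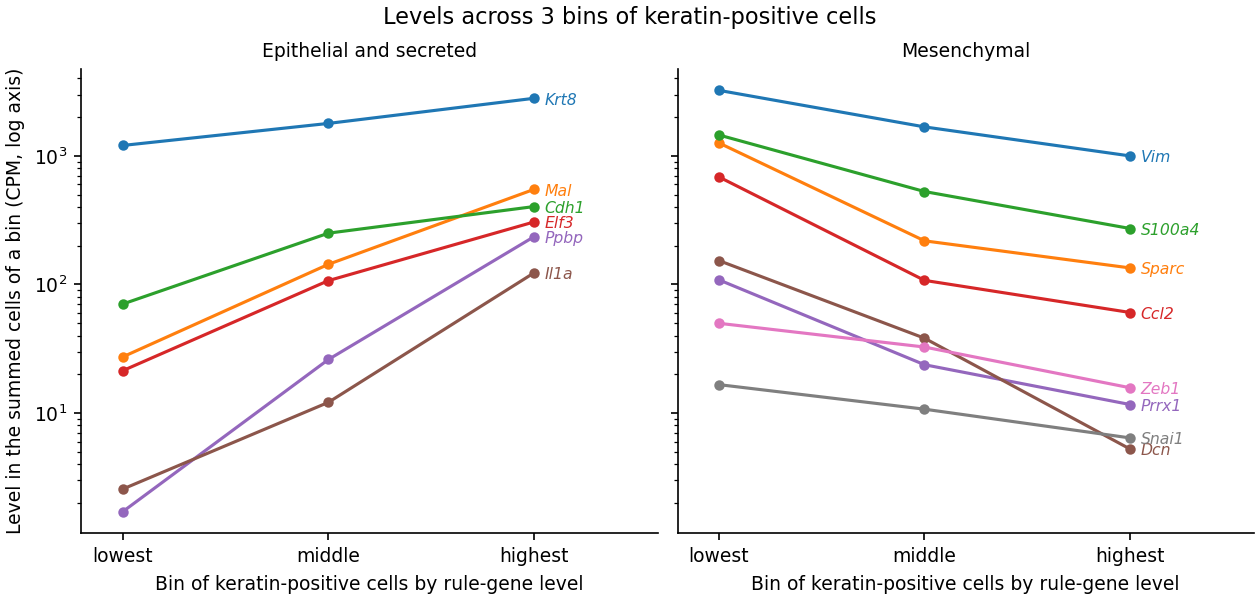
Levels (CPM, log axis) in the summed cells of 3 equal bins of keratin-positive cells ordered by the level of the 7 rule genes. Epithelial and secreted genes on the left increase from the lowest to the highest bin, for example Cdh1 from 70.3 to 403 CPM. Mesenchymal genes on the right decrease, for example Vim from 3234 to 998 CPM.

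Epithelial and mesenchymal UMIs were counted together in single barcodes. A cell was scored for at least 5 UMIs over 8 epithelial genes (Cdh1, Esrp1, Elf3, Dsp, Lama3, Cldn3, Cldn6 and Spint2) and at least 5 over 8 mesenchymal genes (Sparc, Prrx1, Tcf4, Dcn, Col3a1, Twist2, S100a4 and Zeb1), which were picked after their values were seen. Both were met in 186 of the 449 cells (41.4%), the epithelial sum alone in 36.7%, the mesenchymal sum alone in 16% and neither in 5.79%. Among keratin-low cells, both were met in 0.734% and the mesenchymal sum alone in 98.4%. By bin, both were met in 38.7, 52.0 and 33.6% from the lowest to the highest, and the mesenchymal sum alone in 44.0, 4.00 and 0%. In set 3 both were met in 37.2% of cells and outside it in 45.3%. Cells were not thinned for these shares. After thinning to 2000 UMIs, with at least 2 UMIs of each sum, both were met in 19.7% of 442 keratin-positive cells (16.1 to 23.7%), 0.571% of keratin-low cells and 0.601% of immune cells. The epithelial sum was met in 63.8, 0.604 and 0.765% of these cells. The mesenchymal sum was met in 41.4% of keratin-positive but 65.8% of immune cells, among which S100a4 was seen in 68.2%. The mesenchymal share of the keratin-positive cells was not above that of immune cells. S100a4 is 1 of the 8 genes, and how much of the immune share comes from expression or from free RNA was not tested. Whether cells expressed both programs was not tested, and the co-detection is not read as such. The part of free RNA and of doublets in the co-detection was not tested.

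A subset of 55 keratin-positive cells (12.2%, 9.36 to 15.6%) held at least 1 UMI of Krt5. Sets 1 to 6 held 0, 4, 48, 0, 1 and 2 of them, so 87.3% came from set 3, where they were 22.3% of the keratin-positive cells. Their median was 13963 UMIs, against 11376 in the others. Over all sets, 361 of 8480 genes (4.26%) were at least 2-fold higher and 1258 (14.8%) at least 2-fold lower in cells with Krt5. Since most cells with Krt5 came from set 3, the levels that follow compare the 48 cells with 167 cells without Krt5 in set 3 alone. Counts per list are over all sets, so they mix the difference by Krt5 with that between sets. The Krt5 subset was defined, and its genes outside the lists were named, after values were seen.

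Basal and stratified squamous genes were higher in the cells with Krt5. Col17a1, the hemidesmosome collagen, stood at 344 against 4.67 CPM, Trp63 at 60.5 against 2.60 CPM and Dsg3 at 138 against 15.6 CPM. Krt14, the pairing partner of Krt5, stood at 2316 against 619 CPM, and Krt6a at 942 against 172 CPM. Lgals7 stood at 3589.8 against 67.0 CPM, the gene whose overall ratio turned without set 3. The keratinocyte protein Krtdap, the epithelial checkpoint protein Sfn (14-3-3 sigma) and the synuclein Sncg stood at 130.3, 1509.9 and 516 CPM, against 2.60, 232 and 5.19 CPM. Over all sets, 8 of 10 cornified genes and 6 of 11 desmosome genes were at least 2-fold higher, and 13 of 20 proliferation genes were, with Top2a within set 3 at 319 against 166 CPM.

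Simple keratins and some matrix and secreted genes were lower in these cells. The summed fibroblast markers were not, at 701 against 477 CPM. Over all sets, 3 of 8 tested fibroblast markers were at least 2-fold higher with Krt5 and 0 lower. Krt8 stood at 926 against 2072 CPM and the rule gene Krt7 at 450.2 against 1418 CPM. Vim stood at 198 against 2011 CPM and Fn1 at 38.4 against 1180.5 CPM. Npnt stood at 1.16 against 145 CPM, and Tslp at 6.98 against 281 CPM. Calca, the calcitonin gene, stood at 2.33 against 388 CPM. Zeb1 and Csf2 had no UMI in the 48 cells, against 32.2 and 101 CPM, at least 9.22-fold and 29.0-fold lower at a floor of 3 counts. The mesenchymal factors did not move as 1 block: Twist2 stood higher with Krt5, at 76.8 against 11.4 CPM, and Snai2 at 19.8 CPM with no UMI in the 167 cells. Of 9 mesenchymal regulators tested over all sets, 7 were lower and 1 higher, and of 16 chemokines 8 were lower and none higher.

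**Figure D5:**
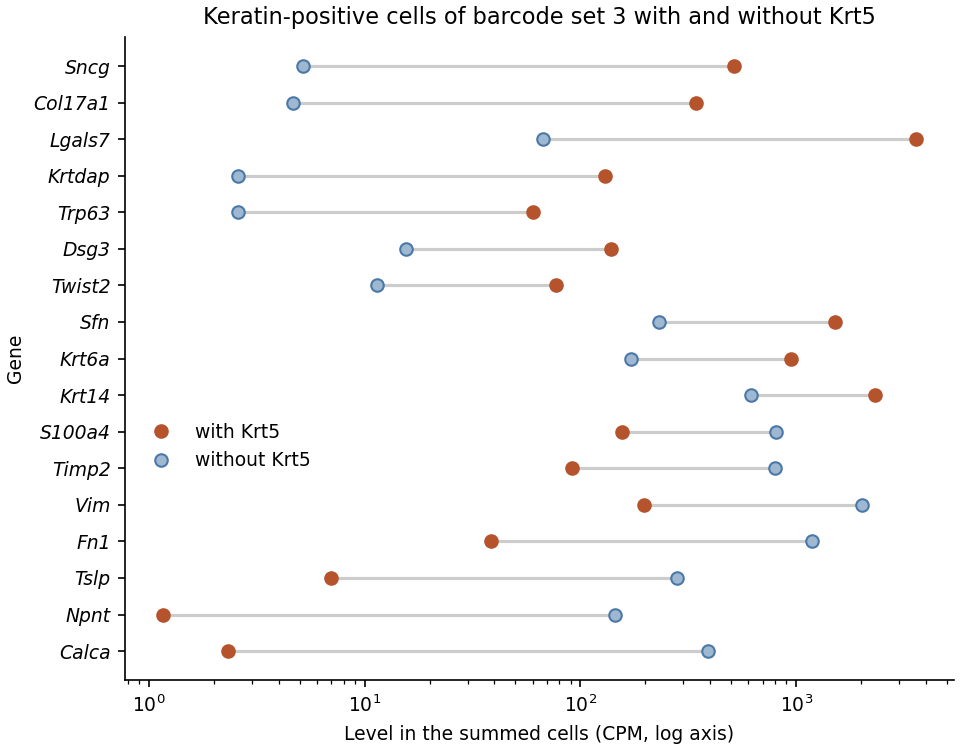
Levels (CPM, log axis) of 17 genes in the 48 keratin-positive cells of barcode set 3 with a Krt5 UMI and in the 167 without, each a sum over cells without replicates. Col17a1 stands at 344 against 4.67 CPM and Fn1 at 38.4 against 1180.5 CPM.

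The sets also differed in the whole balance of the programs. The summed epithelial regulator list stood between 1.46 and 2.04 times the keratin-low level of the same set (median 1.87), and the summed mesenchymal effectors between 0.247 and 0.765 times (median 0.531). Set 3 gave the lowest ratio in both, and it was the set with only 45 keratin-low cells. For the epithelial regulators its keratin-positive level was nevertheless the highest of the sets, at 1716 CPM, beside a keratin-low level of 1177 CPM that was also the highest. Whether these differences go with treatment could not be examined, since the sets are tied to no group.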

How the data were processed

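Live cells of 6 pooled MOC-2 tumors were profiled by droplet 3′ RNA sequencing. The deposited data are a single table of raw UMI counts over 32285 genes, 12 tags and 14818 cells. Cell Ranger 7.1 and Seurat are named per the submitters' processing notes, with build mm10, while per the file headers version 7.0.0 wrote the table. Filters on cells before deposit are not given in the sources used here. Reads were counted per gene, so overlapping genes and near-identical copies may share counts.

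Barcodes with fewer than 500 genes, or with mitochondrial genes at 15% or more of the counts, were dropped. Cells were chosen by raw UMI counts, and a barcode set is the cells that share a suffix. Since no label ties a suffix to a tumor, the planned comparison of groups was not made, the matrix was treated as 1 sample, and no test was run on cells. Over the 6 sets only the gap of Dixon's outlier test was computed. Counts were summed over the cells of a group and scaled to 1000000 gene UMIs (CPM). A ratio was called at 2-fold among genes with at least 50 counts over both groups, with a floor of 3 counts. Intervals are exact 95% Poisson, binomial or conditional binomial intervals and cover counting error only. Total gene counts per set ran from 7354560 to 38798439. Doublets were scored per set with scrublet (scanpy 1.11.5) at an expected 6% and were not removed. Other tools were numpy 2.4.6, scipy 1.17.1, pandas 2.3.3 and matplotlib 3.10.9. The steps were tested on simulated data.

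The cells and the gene lists were chosen with earlier results of these data known. Named genes are, per list, up to 6 with the highest level and those at 2-fold, and the targets Ido1 and Ido2. Outside the lists they are the 20 largest and 10 smallest ratios among genes with at least 200 counts. These genes were seen in at least 10% of the cells of the group where they were higher. Others were named after their values were seen. Alternatives changed the cell filter, marker limits, comparison cells, averaging, depth range and barcode sets.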

Additional observations from a re-analysis of the deposited data

Results flagged for a closer look

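A pair of values of barcode set 3 stood far from those of the other sets. Keratin-positive cells made up 25.8% of the kept cells of set 3, and the next highest set was at 4.00%. Cells with a Krt5 UMI made up 22.3% of the keratin-positive cells of set 3, and the next highest set was at 5.13%. In each case the gap to the nearest set, divided by the whole range of the 6 sets, was 0.867 and 0.770, above Dixon's critical value at 95% for 6 samples. Chance alone passes this limit in about 1 of 20 groups, and 6 quantities were examined in this way. The sets are tied to no group, so whether either value goes with treatment was not tested.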

How the results depend on the processing

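Among 317 named genes, 212 differed by at least 2-fold, and 176 of these did so in every one of 19 alternatives. Numbers of genes at 2-fold higher or lower stayed within 1.5 times of those reported in every alternative. The number of keratin-positive cells, 449, became 802 with at least 2 markers and 3 UMIs and 282 without cells whose largest tag held under 90%. Leaving out 1 barcode set at a time gave 234 to 430 cells (234 without set 3), 846 to 904 higher and 1175 to 1514 lower genes, Xist at 915 to 1459 CPM, Y-linked genes at 1.76 to 2.62 CPM, and ratios of 2.00 to 2.22 for the summed epithelial regulators and 0.396 to 0.527 for the summed mesenchymal effectors. Xist, at 1351 CPM, became 1308 with the stricter cell filter, 1384 with at least 10 marker UMIs, 1220.4 with 2 markers, 1404 with Ptprc and Tyrobp at 0, 1893 as a mean over cells, 1055 as a mean over sets, 1522 in cells of 5000 to 20000 UMIs and 1273 without Krt5-positive cells, an alternative added after seeing the data. The epithelial ratio of 2.17 became 1.81 with 2 markers, 2.22 with Ptprc and Tyrobp at 0, 2.10 without mixed tags, 2.32 over cells, 1.79 over sets, 2.27 in the depth range and 2.09 against all other Xist-positive Y-negative cells. The mesenchymal ratio of 0.429 became 0.383 with 10 marker UMIs, 0.582 with 2 markers, 0.414 with Ptprc and Tyrobp at 0, 0.365 over cells, 0.495 over sets, 0.411 in the depth range, 0.421 against cells with no rule-gene UMI, 0.442 against all other Xist-positive Y-negative cells and 0.485 without Krt5-positive cells. These ratios kept their direction in every alternative. Acta2, Lgals7 and Nectin1 turned. Acta2, at 3.39, was 0.711 with 10 marker UMIs, 0.777 without doublet scores of at least 0.25, 0.337 over sets, and 0.843 (without set 2) to 7.83 (without set 3) with 1 set left out. Lgals7, at 4.97, was 0.291 without Krt5-positive cells and 0.794 (without set 3) to 5.65 (without set 2) with 1 set left out, and Nectin1, at 3.16, was 0.379 without Krt5-positive cells. With 2 markers, Aqp5 (0.944), S100a4 (0.753), Psmb9 (1.84) and Slc2a1 (1.83) lost the 2-fold difference, as did Gbp2 (1.71) as a mean over sets and Col1a2 (1.89) with 10 marker UMIs. The causes were not tested. Shallow genes, at under about 1 CPM in keratin-low cells, rest on few UMIs, and their ratios are imprecise. Dsg2 and Dsg3, for example, had ratios of 224 and 734, which became 52.0 and 44.5 as means over the sets. No paired analysis was possible because no column carries a tumor's replicate number, and levels of both cell groups in the same barcode set are given side by side without a test.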
